A study of Mus musculus with 12 samples.

Results

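The Mef2 family of the mouse has 4 genes, Mef2a, Mef2b, Mef2c and Mef2d, and all 4 were found by symbol among the 41388 genes of the deposited files. The family was taken up because Mef2c was strongly lower in cortical neurons that carried an expanded huntingtin fragment. Because those measured values chose the family, the members' levels in both comparisons that involve the expanded fragment are given below as a description with no test. The choice did not use the comparison of the unexpanded fragment with the control vector, in which the members were tested. That comparison does share its control vector libraries with the comparison of the expanded fragment with the control vector.

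RNA was sequenced from 12 libraries of mouse primary cortical neurons, which were isolated from Swiss Webster embryos at embryonic day 16, infected with a lentivirus on day 5 in culture and harvested on day 10. There were 4 libraries each of Htt-72Q (the mutant huntingtin exon 1 with 72 glutamines, a length of the range seen in Huntington disease), Htt-25Q (the wild-type exon 1 with 25 glutamines) and control vector (a lentivirus without huntingtin sequence). All 12 cultures were therefore infected and kept their own Htt gene, and the constructs hold only exon 1; the promoter that drives them is not given in the labels. The labels do not say which libraries came from separate dissections, so p-values measure the spread between these libraries, part of which may be technical.

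MEF2 proteins are transcription factors that bind an A/T-rich element through a MADS domain and an adjoining MEF2 domain. In neurons, calcium entry drives kinases and the phosphatase calcineurin, which free MEF2 from class IIa histone deacetylases and switch it from a repressor to an activator. In the cortex, Mef2c is the member best known from excitatory neurons, where it limits synapse number and takes part in neuronal maturation; Mef2a and Mef2d act in neuronal survival and activity-dependent transcription.

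The members lie on separate chromosomes (GRCm38, positions of the deposited files). Mef2a (ENSMUSG00000030557) spans chr7:67231163-67372858 on the minus strand, Mef2c (ENSMUSG00000005583) spans chr13:83504034-83667079 on the plus strand, Mef2d (ENSMUSG00000001419) spans chr3:88142372-88172086 on the plus strand and Mef2b (ENSMUSG00000079033) spans chr8:70152778-70167488 on the plus strand. The counted exons sum to 6283 bases in 14 merged exons for Mef2a, 6760 bases in 14 exons for Mef2c, 5985 bases in 12 exons for Mef2d and 1342 bases in 9 exons for Mef2b.

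The promoters of the 3 members that were detected are shown because Mef2c and Mef2d stood lower together in Htt-72Q while Mef2a differed less, so their start regions can be set beside each other. Each window holds 250 bases before and 50 bases after a transcription start (RefSeq, GRCm38.p6), written 5′ to 3′ on the gene's strand. Capitals mark a match to the MEF2 consensus, which was searched by that name on both strands. The windows are chr7:67372809-67373108 (minus strand) for Mef2a, chr13:83503784-83504083 (plus strand) for Mef2c and chr3:88142122-88142421 (plus strand) for Mef2d.
Mef2a: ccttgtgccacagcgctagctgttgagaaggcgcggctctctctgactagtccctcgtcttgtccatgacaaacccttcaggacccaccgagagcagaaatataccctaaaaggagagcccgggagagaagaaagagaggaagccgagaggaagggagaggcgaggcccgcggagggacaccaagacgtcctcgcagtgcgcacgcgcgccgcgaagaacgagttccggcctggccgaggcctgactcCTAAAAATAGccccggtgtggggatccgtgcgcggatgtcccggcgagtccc
Mef2c: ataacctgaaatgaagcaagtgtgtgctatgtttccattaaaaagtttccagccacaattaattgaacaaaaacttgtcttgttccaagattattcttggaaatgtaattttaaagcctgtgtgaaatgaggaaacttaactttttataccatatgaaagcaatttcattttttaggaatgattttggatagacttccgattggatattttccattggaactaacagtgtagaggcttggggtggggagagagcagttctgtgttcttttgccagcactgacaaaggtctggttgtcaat
Mef2d: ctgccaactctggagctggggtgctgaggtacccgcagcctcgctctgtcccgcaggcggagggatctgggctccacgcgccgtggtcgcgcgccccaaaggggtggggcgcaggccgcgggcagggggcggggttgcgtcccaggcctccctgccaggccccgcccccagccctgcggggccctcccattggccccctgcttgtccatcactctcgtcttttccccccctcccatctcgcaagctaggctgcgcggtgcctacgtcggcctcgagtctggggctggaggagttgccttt
The Mef2a window holds 1 match to the element that MEF2 proteins themselves bind, and it begins 2 bases before the start. The Mef2c and Mef2d windows hold none, nor do the window of Mef2b and the further 2 windows of Mef2c. Over all 32851 promoter windows of this length, 3.19% hold a match. No member window holds the cyclic AMP response element (TGACGTCA, on both strands, in 1.79% of all windows) or the CArG box of serum response factor (in 1.63%), and no overlap between motifs arose in the member windows. The windows differ in base composition, with 62.3% G and C in Mef2a, 35.7% in this Mef2c window and 72% in Mef2d. The further 2 Mef2c windows hold 47.0% and 48.3%, and which start these cultures used was not tested.

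Mef2c was the member that differed most between the groups. Its level in TMM-scaled CPM (the gene's reads relative to the library's total, after scaling for library composition) was 412, 360, 412 and 473 in Htt-72Q 1 to 4. It was 1742, 1576, 2001 and 1982 in Htt-25Q 1 to 4 and 2056, 1807, 1602 and 2114 in control vector 1 to 4. All 4 Htt-72Q libraries lay far below the lowest library of either other group, and the Htt-25Q and control vector libraries overlapped. Behind these levels stood 5164 to 9782 reads per Htt-72Q library, 33849 to 53478 per Htt-25Q library and 26312 to 46687 per control vector library, so counting error is small beside the spread between libraries.

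The mean of Mef2c was 414 ± 46.2 CPM with Htt-72Q, 1825 ± 204 CPM with Htt-25Q and 1895 ± 236 CPM with control vector (SD, n = 4 each). The log2 fold change of Htt-72Q over control vector was -2.19 ± 0.13 (SE), a level 4.57-fold lower, and that of Htt-72Q over Htt-25Q was -2.14 ± 0.13, a level 4.41-fold lower. Of 14707 genes tested, 119 (0.809%) had a lower log2 fold change than Mef2c over control vector and 149 (1.01%) over Htt-25Q. Both comparisons share the Htt-72Q libraries. In bulk RNA, fewer cells of a type and less RNA per cell cannot be told apart.

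Mef2d, which is expressed across many tissues, stood lower in Htt-72Q by a smaller step. Its level was 74.3, 69.5, 54.9 and 73.9 CPM in Htt-72Q 1 to 4. It was 94.3, 97.2, 117 and 124 CPM in Htt-25Q 1 to 4 and 147, 105, 98.2 and 108 CPM in control vector 1 to 4. No Htt-72Q library reached the lowest library of either other group, and control vector 1 was the highest of the 12. The means were 68.2 ± 9.10 CPM with Htt-72Q, 108 ± 14.8 CPM with Htt-25Q and 114 ± 22.1 CPM with control vector (SD, n = 4 each). The log2 fold change was -0.75 ± 0.15 (SE) for Htt-72Q over control vector, a level 1.68-fold lower, and -0.67 ± 0.15 for Htt-72Q over Htt-25Q, a level 1.59-fold lower. An opposite-strand gene, 1700113A16Rik, shares 527 exonic bases (8.81%) with Mef2d, and strand use in counting is not given; it held 2 to 13 reads per library, so it can account for few of the 689 to 3337 reads of Mef2d.

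Mef2a, the member with the most even level, had 126, 118, 107 and 135 CPM in Htt-72Q 1 to 4. It had 130, 147, 135 and 139 CPM in Htt-25Q 1 to 4 and 168, 157, 157 and 116 CPM in control vector 1 to 4. The Htt-72Q range overlapped both others: Htt-72Q 4 stood above Htt-25Q 1, and control vector 4 stood below 3 of the 4 Htt-72Q libraries. The means were 122 ± 11.7 CPM with Htt-72Q, 138 ± 7.34 CPM with Htt-25Q and 149 ± 22.7 CPM with control vector (SD, n = 4 each). The log2 fold change was -0.30 ± 0.12 (SE) for Htt-72Q over control vector and -0.18 ± 0.12 for Htt-72Q over Htt-25Q.

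Mef2b had 0 reads in each of the 12 libraries and was not tested. Taken over all libraries, a count of 0 allows up to 0.0134 CPM (3 reads, counting error only) of reads assigned to it. That limit does not bear on its expression, because 1275 of its 1342 exonic bases (95%) are shared with Borcs8 on the same strand and only 67 are its own. How the counting treated reads that fall in both genes is not given in the sources used here. Borcs8, which encodes a subunit of a complex that positions lysosomes, held 514 to 1140 reads per library.

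**Figure D1:**
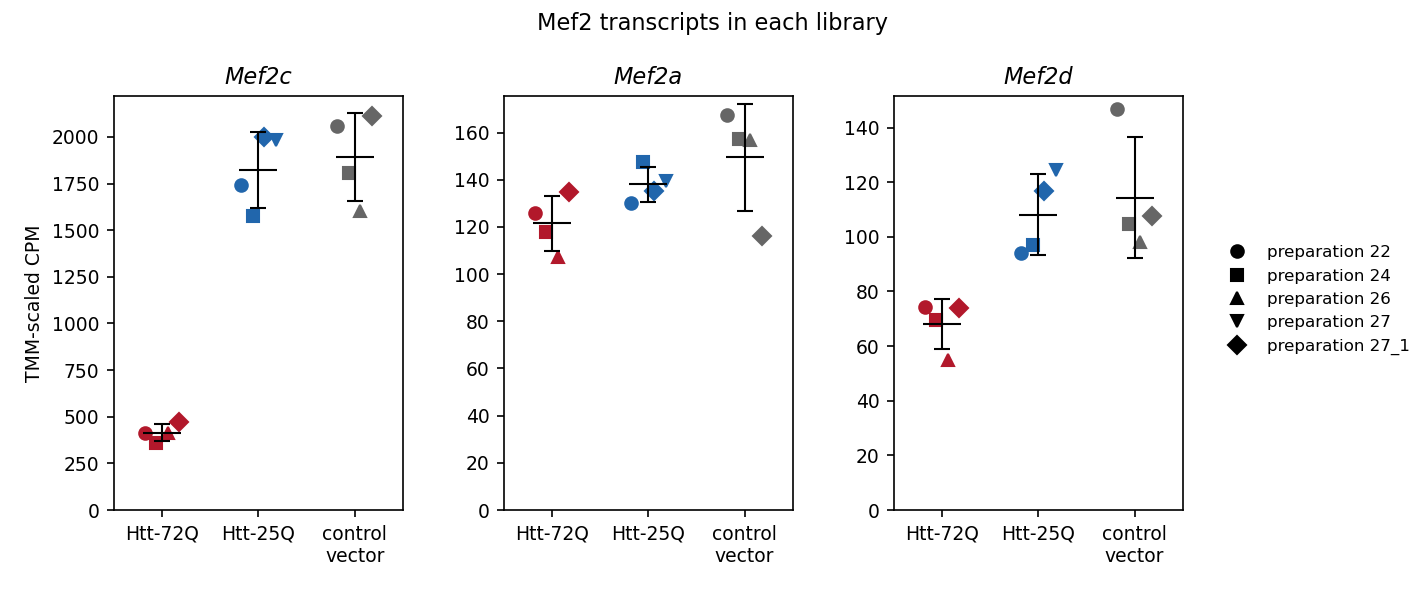
TMM-scaled CPM (vertical axes, starting at 0) of Mef2c, Mef2a and Mef2d in each of the 12 libraries, with bars at the mean ± SD of 4 libraries per group and symbols for the preparation number in the labels. For Mef2c the 4 Htt-72Q libraries sit between 360 and 473 CPM and the other 8 between 1576 and 2114 CPM, and for Mef2a the groups overlap.

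Of the 3 members tested, 2 (Mef2c and Mef2d) had Htt-72Q libraries that all lay below every control vector library, as 13.6% of all genes did, and the same 2 lay below every Htt-25Q library, as 15.1% of all genes did. Since the family was chosen on these contrasts, nothing is read from those counts. The order of the members by size of difference was Mef2c, Mef2d, Mef2a in both comparisons, and 11.2% of genes had a lower log2 fold change than Mef2d over control vector, against 26.8% for Mef2a.

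Library descriptions carry a preparation number (22, 24, 26, 27 or 27_1) whose meaning is not stated, and libraries that share it deviated from their group means together. Within preparations 22, 24, 26 and 27_1, Mef2c in Htt-72Q differed from control vector by -2.32, -2.33, -1.96 and -2.16 on the log2 scale. Within preparations 22, 24 and 27_1 it differed from Htt-25Q by -2.08, -2.13 and -2.08. Mef2c was thus lower in Htt-72Q in every preparation that holds both groups. Mef2d differed from control vector by -0.98, -0.59, -0.84 and -0.54 within the same 4 preparations and from Htt-25Q by -0.34, -0.48 and -0.66, lower each time. Mef2a differed from control vector by -0.41, -0.41, -0.55 and 0.21, so preparation 27_1 went the other way.

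The libraries also form 2 classes of 6 that cross the groups and that no label names, with unscaled Gapdh levels of 9.16 to 20.3 CPM in one and 35.4 to 50.2 CPM in the other. In the class of lower Gapdh, Mef2c was at 412 CPM in the only Htt-72Q library, at 1576 to 1982 CPM in 3 Htt-25Q libraries and at 1602 to 2056 CPM in 2 control vector libraries. In the class of higher Gapdh it was at 360 to 473 CPM in 3 Htt-72Q libraries, at 2001 CPM in the only Htt-25Q library and at 1807 to 2114 CPM in 2 control vector libraries. Within each class Mef2c was lower in every Htt-72Q library than in every other library. Total counts were 12.4 to 20.04 M in Htt-72Q, 18.1 to 27.5 M in Htt-25Q and 12.7 to 23.4 M in control vector, and mitochondrial ribosomal RNA took 10.8 to 14.8%, 7.77 to 13.2% and 6.71 to 14.2% of counts in those groups. Mouse Htt itself stood at 129 to 222, 124 to 177 and 85.6 to 229 CPM of the library total in the same groups.

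The comparison of Htt-25Q with control vector, which the choice of the family did not use, asks whether exon 1 with 25 glutamines alone moves these genes. No member was called there (edgeR quasi-likelihood test, Benjamini-Hochberg adjusted p = 1 for Mef2c, Mef2d and Mef2a), and 0.0% of all genes were. The log2 fold change of Htt-25Q over control vector was -0.05 for Mef2c (95% interval -0.34 to 0.23), -0.08 for Mef2d (-0.42 to 0.26) and -0.11 for Mef2a (-0.40 to 0.17). These intervals hold differences of either sign, so a small change is not excluded by them. Over all genes the edgeR, DESeq2 and limma voom tests each called 0 after adjustment, with 129, 154 and 133 genes at an unadjusted p under 0.05. The ranges of Htt-25Q and control vector overlapped for each of the 3 members, whereas 0.993% of all genes had ranges that did not, and 0.32% lay wholly lower in Htt-25Q.

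The members were set beside each other per transcript length, in RPKM (reads relative to the library's total and to the length of the exons). Mef2c stood at 63.3 ± 6.71 RPKM with Htt-72Q, 266 ± 25.3 RPKM with Htt-25Q and 274 ± 35.6 RPKM with control vector (SD, n = 4 each). Mef2a stood at 20.02 ± 2.10, 21.7 ± 1.31 and 23.2 ± 3.48 RPKM in the same groups, and Mef2d at 11.8 ± 1.73, 17.8 ± 2.13 and 18.7 ± 3.56 RPKM. Mef2c was the most abundant member in each of the 12 libraries, followed by Mef2a and then Mef2d, so the order of the members was the same in all groups. Among the tested genes, 718 (4.88%) had a higher mean RPKM than Mef2c in Htt-72Q, 86 (0.585%) in Htt-25Q and 82 (0.558%) in control vector.

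The make-up of the family's transcript pool follows from the same levels and is likewise a description. The summed RPKM of the family was 95.2 ± 9.14 with Htt-72Q, 305 ± 26.3 with Htt-25Q and 316 ± 36.7 with control vector. Mef2c made up 66.6 ± 2.71% of that sum in Htt-72Q (63.7 to 69.9%), 87.0 ± 1.08% in Htt-25Q (85.4 to 87.8%) and 86.6 ± 2.003% in control vector (85.1 to 89.6%). The share of Mef2a was 21.0 ± 1.22% in Htt-72Q, 7.16 ± 1.00% in Htt-25Q and 7.46 ± 1.57% in control vector. The share of Mef2d was 12.4 ± 1.498%, 5.82 ± 0.35% and 5.90 ± 0.74% in the same groups. Mef2a and Mef2d therefore held a larger part of a smaller pool in Htt-72Q, although neither had a higher mean level there.

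**Figure D2:**
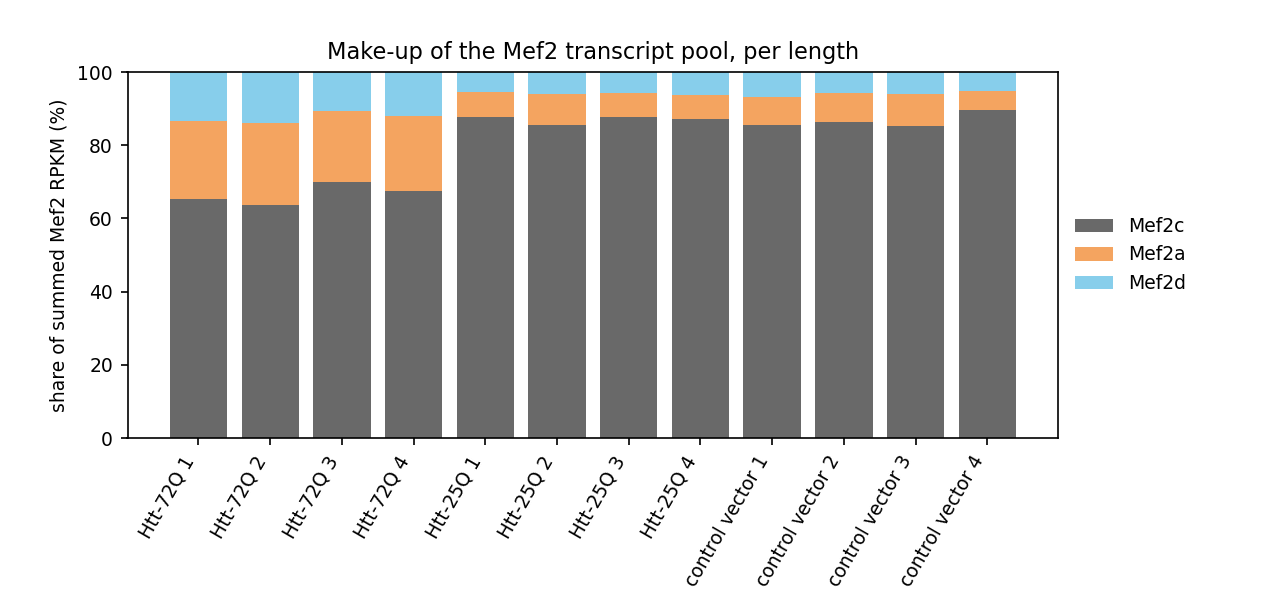
Share of the summed RPKM of Mef2c, Mef2a and Mef2d (vertical axis, in %) in each library, stacked to 100; Mef2b is at 0 reads in all of them. In the 4 Htt-72Q bars Mef2c takes 63.7 to 69.9%, against 85.1 to 89.6% in the other 8.

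Markers of cortical cell types were set beside the members. The summed level of 10 excitatory cortical neuron markers was 414 to 600 CPM with Htt-72Q, 861 to 1324 CPM with Htt-25Q and 879 to 1206 CPM with control vector, and 7 of the 10 were lower in Htt-72Q than in control vector (9 of 10 against Htt-25Q; adjusted p under 0.05, edgeR). Of all genes 13.7% were called lower over control vector and 13.4% over Htt-25Q. Slc17a7, the vesicular glutamate transporter of these neurons, was at 111 CPM with Htt-72Q, 296 CPM with Htt-25Q and 290 CPM with control vector. The summed level of 10 inhibitory neuron markers was 112 to 171, 185 to 313 and 222 to 292 CPM in the same groups, with 4 of 10 lower in Htt-72Q in each comparison. That of 10 markers of neurons in general was 5259 to 5521, 6490 to 7643 and 7122 to 8092 CPM, with 4 of 10 lower against control vector and 3 of 10 against Htt-25Q. The label of the cultures as neurons was set beside these markers: all 10 general neuron markers were above 1 CPM on average in each group. So were all 10 astrocyte markers. Neuronal RNA was thus present, but these levels do not show that the cultures held neurons alone.

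The ratio of Mef2c to the summed excitatory markers was 0.885 ± 0.0746 with Htt-72Q, 1.73 ± 0.230 with Htt-25Q and 1.84 ± 0.199 with control vector (SD, n = 4 each). It ranged from 0.789 to 0.962 in Htt-72Q, from 1.497 to 2.02 in Htt-25Q and from 1.64 to 2.05 in control vector. Over the general neuron markers the ratio was 0.0761 ± 0.00867, 0.262 ± 0.0176 and 0.253 ± 0.0261 in Htt-72Q, Htt-25Q and control vector. Over the inhibitory markers it was 3.11 ± 0.504, 7.36 ± 1.43 and 7.82 ± 1.04. Each ratio holds the Mef2c level on which the family was chosen, so it is a description only. The part of the markers in the level of Mef2c was not tested. Of 10 astrocyte markers edgeR, DESeq2 and limma voom called 0 in either comparison (1 had an unadjusted p under 0.05 over control vector), and their sum was 2563 to 3008, 2492 to 3179 and 2773 to 3269 CPM in Htt-72Q, Htt-25Q and control vector. Of 10 oligodendrocyte-lineage markers 1 was lower against Htt-25Q, and of 10 mural and fibroblast markers 5 had enough reads to be tested, with 1 higher and 1 lower in each comparison. Microglial and endothelial markers were close to absent, with 9 of 10 under 1 CPM in every group. The microglial marker Tmem119 was at 0 in Htt-25Q and control vector, and the endothelial marker Tie1 was at 0 in Htt-72Q and Htt-25Q. The 8 skeletal muscle markers, another tissue rich in MEF2, summed to 6.14 to 7.16 CPM with Htt-72Q, 5.73 to 9.24 CPM with Htt-25Q and 5.25 to 11.2 CPM with control vector.

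Upstream of the family stand the proteins that hold MEF2 in check or switch it on. Of 27 genes for such regulators, all 27 were tested: 1 was higher and 9 were lower in Htt-72Q than in control vector, and 17 were not called (37.0% called, beside 23.2% of all genes, 9.44% higher and 13.7% lower). Against Htt-25Q, 1 was higher, 8 were lower and 18 were not called (33.3%, beside 22.5% of all genes, 9.07% higher and 13.4% lower). The median log2 fold change of the list was -0.27 over control vector and -0.29 over Htt-25Q, against 0.03 over all genes in each comparison. In Htt-25Q against control vector edgeR, DESeq2 and limma voom each called 0, and 0 had an unadjusted p under 0.05. The list was drawn up with earlier results of these data known.

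Among the repressors, Hdac9 encodes a class IIa histone deacetylase that binds MEF2 and keeps it silent. Hdac9 was at 27.8, 34.1, 43.0 and 46.0 CPM in Htt-72Q 1 to 4. It was at 107, 140, 160 and 178 CPM in Htt-25Q 1 to 4 and at 103, 120, 135 and 150 CPM in control vector 1 to 4. The highest Htt-72Q library lay below all of the other 8, and Hdac9 fell by 1.75 on the log2 scale over control vector (SE 0.19, adjusted p = 1.73e-05, edgeR quasi-likelihood test with Benjamini-Hochberg adjustment) and by 1.95 over Htt-25Q (SE 0.19, adjusted p = 7.28e-06). Hdac5, of the same class, fell by 0.52 over control vector (SE 0.12, adjusted p = 0.0046) and by 0.54 over Htt-25Q (SE 0.12, adjusted p = 0.0040). Hdac4, outside the 8 regulators of smallest p, was lower too, at -0.45 over control vector (adjusted p = 0.0142) and -0.35 over Htt-25Q (adjusted p = 0.0473). The last call ended with the preparation block (adjusted p = 0.146) and without any 1 of 10 libraries, all but Htt-25Q 1 and control vector 1 (adjusted p 0.0547 to 0.149). The fourth gene of the class, Hdac7, was not called, with log2 fold changes of 0.70 over control vector (adjusted p = 0.0997, and 0.0430 with the preparation block) and 0.48 over Htt-25Q (adjusted p = 0.259).

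Calcium signalling to MEF2 runs through calcineurin and calcium/calmodulin-dependent kinases. Ppp3ca and Ppp3cb, which encode catalytic subunits of calcineurin, were both lower. Ppp3ca was at 288 to 419 CPM with Htt-72Q, 585 to 746 CPM with Htt-25Q and 582 to 735 CPM with control vector, and fell by 0.98 over control vector (SE 0.13, adjusted p = 0.0001, edgeR) and by 1.02 over Htt-25Q (SE 0.13, adjusted p = 8.2e-05). Ppp3cb averaged 126 ± 22.2 CPM with Htt-72Q, 197 ± 8.57 CPM with Htt-25Q and 205 ± 10.5 CPM with control vector, with log2 fold changes of -0.70 over control vector (adjusted p = 0.0009) and -0.65 over Htt-25Q (adjusted p = 0.0016). The regulatory subunit gene Ppp3r1 was not called, at -0.10 over control vector. Camk4, whose kinase phosphorylates class IIa deacetylases so that they leave MEF2, was at 151 to 211 CPM with Htt-72Q, 307 to 455 CPM with Htt-25Q and 395 to 519 CPM with control vector. Camk4 fell by 1.28 over control vector (SE 0.15, adjusted p = 3.2e-05) and by 1.16 over Htt-25Q (SE 0.15, adjusted p = 7.3e-05).

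Some other kinases of the list were lower by smaller steps. Mapk7, which encodes ERK5, an activating kinase of MEF2C, averaged 27.2 ± 3.30 CPM with Htt-72Q, 39.3 ± 3.37 CPM with Htt-25Q and 42.0 ± 3.98 CPM with control vector (log2 fold change -0.63, adjusted p = 0.0029 over control vector; -0.53, adjusted p = 0.0088 over Htt-25Q). Nlk, the gene of Nemo-like kinase, averaged 43.6 ± 6.17, 82.6 ± 13.3 and 75.9 ± 8.13 CPM in the same groups (-0.80, adjusted p = 0.0011; -0.92, adjusted p = 0.0004). Cdk5, a neuronal kinase that phosphorylates MEF2 and is outside the 8 of smallest p, was at -0.48 over control vector (adjusted p = 0.0293), a call that ended without Htt-72Q 1, 2 or 4 or control vector 2 or 4 (adjusted p 0.0543 to 0.0923). Against Htt-25Q it was at -0.42 (adjusted p = 0.0548, and 0.0382 with the preparation block). Mamstr, a coactivator gene named for its activation of MEF2, was the 1 regulator higher in Htt-72Q. It averaged 1.87 ± 0.461 CPM with Htt-72Q, 0.759 ± 0.0893 CPM with Htt-25Q and 0.660 ± 0.233 CPM with control vector, a low level throughout (log2 fold change 1.48, adjusted p = 0.0049 over control vector; 1.29, adjusted p = 0.0099 over Htt-25Q). The coactivators Ep300 and Crebbp were not called, at 0.12 and -0.08 over control vector. The kinase genes Camk1, Prkd1, Sik2, Sik3, Map2k3, Map2k5 and Map2k6, outside the 8 of smallest p, were not called either. That held in both Htt-72Q comparisons, with or without the preparation block. With the preparation as a block the counts of regulators were 2 higher and 10 lower over control vector (beside 30.5% of all genes called under the block) and 1 higher and 9 lower over Htt-25Q (beside 21.2%). Besides Hdac7 and Cdk5, the block called Mapk14, the gene of a p38 kinase (-0.53 over control vector, adjusted p = 0.0413, and 0.0724 without it), and Sik1, the gene of a salt-inducible kinase (-0.46 over Htt-25Q, adjusted p = 0.0377, and 0.127 without it).

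**Figure D3:**
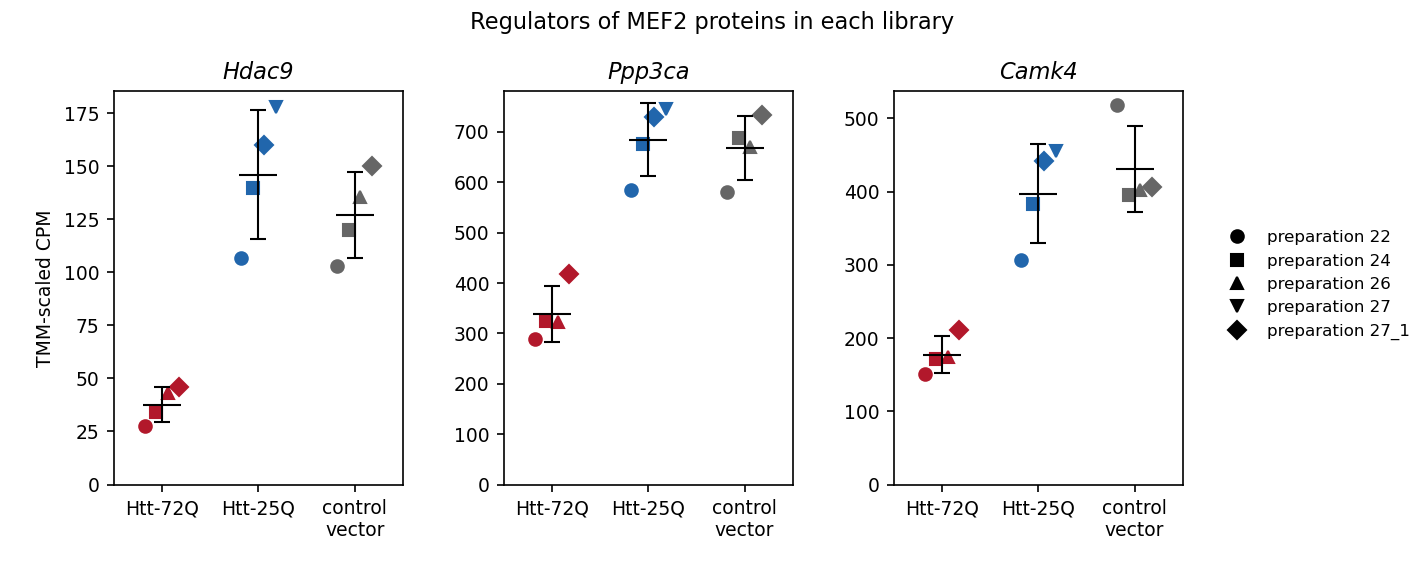
TMM-scaled CPM (vertical axes, starting at 0) of Hdac9, Ppp3ca and Camk4 in each library, with bars at the mean ± SD of 4 libraries per group and symbols for the preparation number. In each panel the highest Htt-72Q library (46.0, 419 and 211 CPM) lies below the lowest of the other 8.

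Downstream, 17 genes reported to be regulated by MEF2 were followed as a neuronal list, and all 17 were tested. In Htt-72Q against control vector 6 were lower, none was higher and 11 were not called (35.3% called, beside 23.2% of all genes). Against Htt-25Q 8 were lower, none was higher and 9 were not called (47.1%, beside 22.5% of all genes). The median log2 fold change was -0.58 over control vector and -0.63 over Htt-25Q, against 0.03 over all genes, and 0.10 for Htt-25Q over control vector, where edgeR, DESeq2 and limma voom each called 0 and 0 had an unadjusted p under 0.05. The count over Htt-25Q fell to 4 without Htt-72Q 1, Htt-72Q 2, Htt-25Q 3 or Htt-25Q 4. With the preparation as a block 11 were called over control vector (1 higher and 10 lower, beside 30.5% of all genes) and 7 over Htt-25Q (beside 21.2%). The summed excitatory and inhibitory markers given above were lower in the same libraries. Over control vector 3 of the 10 excitatory markers were not called, though all 10 had an unadjusted p under 0.05 (edgeR). Of the 10 inhibitory markers 6 were not called in either comparison. The median log2 fold change over control vector and over Htt-25Q was -1.07 and -1.03 for the excitatory markers and -0.61 and -0.56 for the inhibitory ones. The part of these markers in the counts of MEF2-regulated genes was not tested.

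Hdac9 is counted in this list as well, although its gene is known as a target of MEF2 from muscle. Its calls therefore enter the counts of both the regulators and the neuronal list. Dipk2a, listed in the names table as 1190002N15Rik, encodes a protein of the secretory pathway and stood at 14.0, 15.8, 16.3 and 19.2 CPM in Htt-72Q 1 to 4. It stood at 38.5, 42.9, 49.2 and 46.0 CPM in Htt-25Q 1 to 4 and at 36.8, 39.6, 42.9 and 49.3 CPM in control vector 1 to 4. The Htt-72Q libraries were again separate from the rest, and 1190002N15Rik fell by 1.37 over control vector (SE 0.14, adjusted p = 1.24e-05, edgeR) and by 1.44 over Htt-25Q (SE 0.14, adjusted p = 8.7e-06). Kcna1, a voltage-gated potassium channel gene, averaged 29.01 ± 14.6 CPM with Htt-72Q, 91.9 ± 43.1 CPM with Htt-25Q and 78.6 ± 18.7 CPM with control vector (log2 fold change -1.43, adjusted p = 0.0085 over control vector; -1.66, adjusted p = 0.0036 over Htt-25Q).

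In the fit without a block, the remaining calls named here lay closer to the threshold, and each ended when any of several single libraries was left out. With the preparation block these calls held. Its edgeR adjusted p was 0.0036 for Klf6 and 0.0033 for Lgi1 over control vector. Over Htt-25Q it was 0.0019 for Klf6, 0.0286 for Lgi1, 6.5e-05 for Homer1 and 0.0060 for Nr4a1. Single libraries were not left out of the block fit. Klf6, a zinc-finger transcription factor gene, was at -1.07 over control vector (adjusted p = 0.0230, lost without Htt-72Q 1, 2 or 4 or control vector 3, adjusted p 0.0542 to 0.0679) and at -1.05 over Htt-25Q (adjusted p = 0.0266, lost without Htt-72Q 1, 2 or 4 or Htt-25Q 1 or 2, adjusted p 0.0607 to 0.0884, and 0.0846 with a term for the Gapdh classes). Lgi1, the gene of a secreted synaptic protein, was at -0.58 over control vector (adjusted p = 0.0327, lost without Htt-72Q 1, 2 or 3 or control vector 1, 2 or 4, adjusted p 0.0522 to 0.0852, and 0.0511 to 0.0576 when scaled by upper quartiles or library totals) and at -0.62 over Htt-25Q (adjusted p = 0.0247, lost without Htt-72Q 1, 2 or 3 or Htt-25Q 3 or 4, adjusted p 0.0572 to 0.0766). Homer1, a postsynaptic scaffold gene whose transcripts respond to activity, averaged 96.9 ± 39.2 CPM with Htt-72Q, 246 ± 116 CPM with Htt-25Q and 171 ± 100 CPM with control vector. It was called over Htt-25Q (-1.35, adjusted p = 0.0271, lost without Htt-72Q 1 or 2 or Htt-25Q 3 or 4, adjusted p 0.0730 to 0.0889). Over control vector it was at -0.82 (adjusted p = 0.160, and 0.0004 with the preparation block). Nr4a1, an immediate early gene, was called over Htt-25Q (-1.51, adjusted p = 0.0300, lost without Htt-72Q 1, 2 or 3 or Htt-25Q 3 or 4, adjusted p 0.0738 to 0.0950, and 0.0778 with limma voom) and was at -1.08 over control vector (adjusted p = 0.110, and 0.0011 with the block). The block over control vector also called Bdnf (-0.62, adjusted p = 0.0404) and Grin1 (-0.34, adjusted p = 0.0330) as lower and Mirg (0.59, adjusted p = 0.0084) as higher. Arc, Pcdh10, Pcdh17, Jun, Stk38l and Ube3a were called in neither Htt-72Q comparison, with or without the block.

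**Figure D4:**
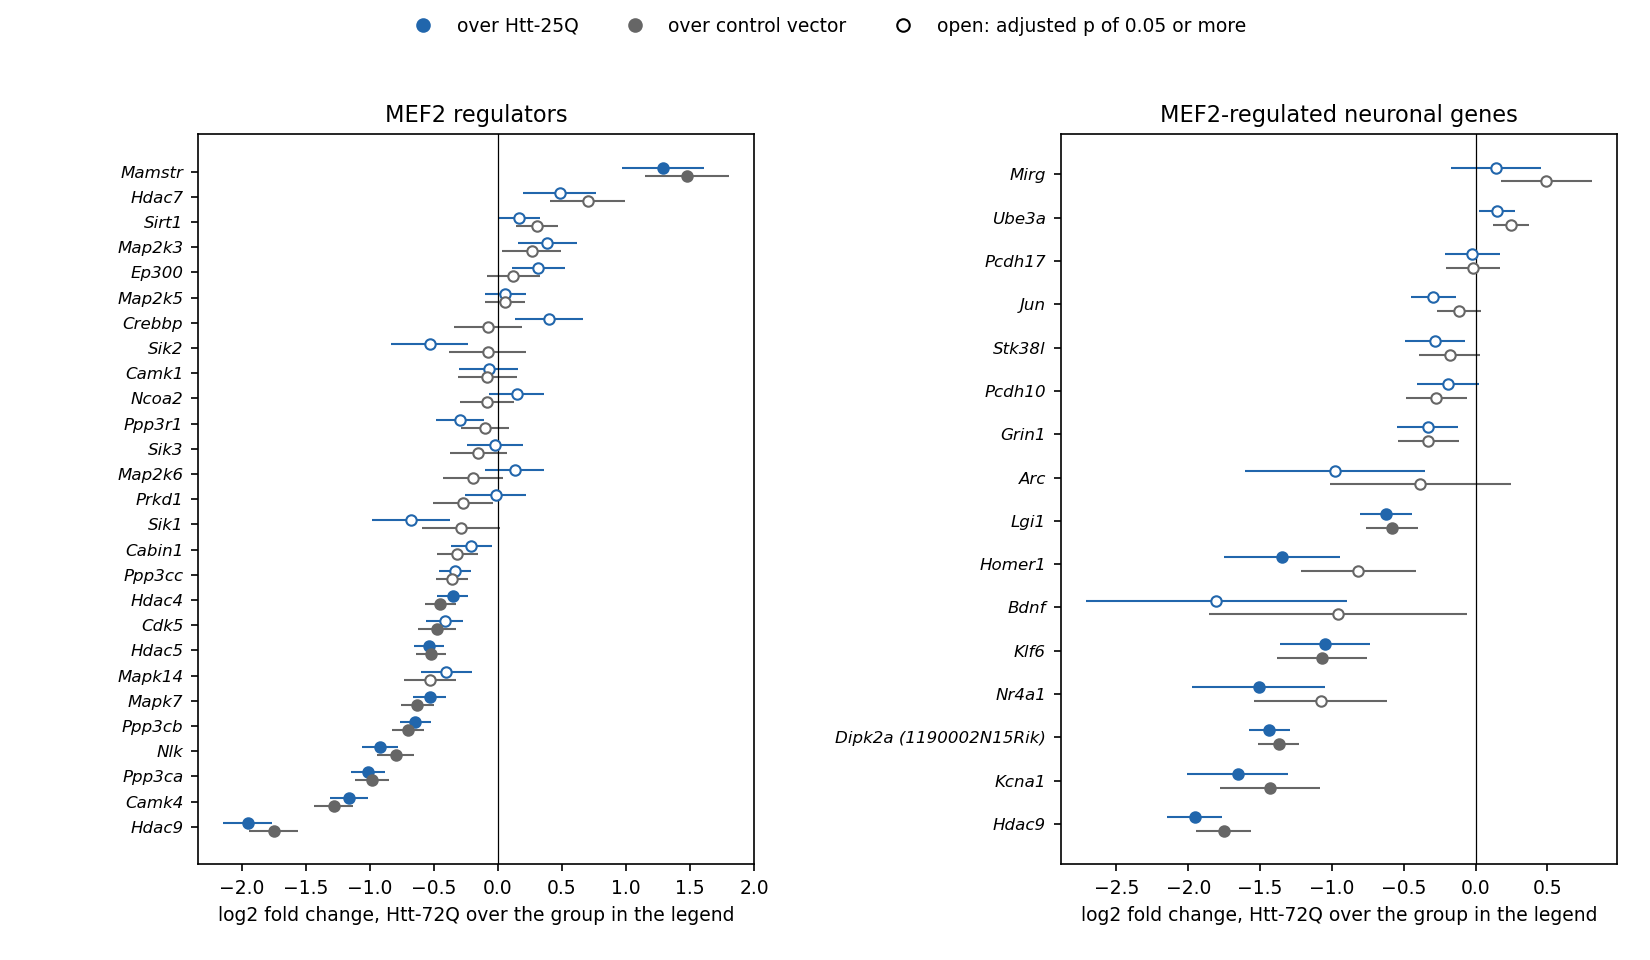
Log2 fold change of Htt-72Q over Htt-25Q (blue) and over control vector (grey) for the 27 MEF2 regulators and 16 of the 17 MEF2-regulated neuronal genes, with bars of 1 SE; filled points have an adjusted p under 0.05. Hdac9, in both panels, lies at -1.95 and -1.75, and Mamstr is the only gene with filled points to the right of 0.

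The muscle targets of MEF2 were counted as well. Of 12 such genes 5 had enough reads to be tested, and edgeR, DESeq2 and limma voom called 0 in each comparison, with 0 at an unadjusted p under 0.05. Their median log2 fold change was 0.09 for Htt-72Q over control vector and 0.30 over Htt-25Q. Of all genes edgeR called 23.2% over control vector and 22.5% over Htt-25Q, so 0 of 5 genes sets no contrast with the neuronal list. The other branch of the MADS-box factors is that of serum response factor, and 3 of its 4 genes were tested. Of these, 2 were called lower in each Htt-72Q comparison, beside 13.7% of all genes over control vector and 13.4% over Htt-25Q. Srf averaged 34.7 ± 2.46 CPM with Htt-72Q, 51.3 ± 5.54 CPM with Htt-25Q and 51.6 ± 5.18 CPM with control vector (log2 fold change -0.57, adjusted p = 0.0040 over control vector; -0.56, adjusted p = 0.0045 over Htt-25Q). Mrtfb, a coactivator of Srf, averaged 52.4 ± 6.70, 89.4 ± 23.2 and 100 ± 24.6 CPM in the same groups (-0.93, adjusted p = 0.0034; -0.77, adjusted p = 0.0113). Mrtfa was not called (-0.27 and 0.06), and Myocd was too low to be tested. Of the list genes, Hdac5, Jun and Mrtfb have a promoter window with a match to the MEF2 consensus: 1 of 29 windows of the regulators, 1 of 22 of the neuronal genes, 0 of 15 of the muscle genes and 1 of 6 of the Srf branch.

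Genes next to the members were examined for the position of the differences. The nearest tested gene to Mef2c is C130071C03Rik, a long non-coding RNA gene 54.3 kb away, and it was lower in Htt-72Q as well. It was at 63.6, 73.8, 134 and 87.9 CPM in Htt-72Q 1 to 4, at 151 to 216 CPM in Htt-25Q and at 148 to 203 CPM in control vector. The log2 fold change was -0.93 ± 0.20 over control vector (SE, adjusted p = 0.0041, edgeR) and -1.11 ± 0.20 over Htt-25Q (adjusted p = 0.0012). On the other side of Mef2c, Cetn3 lies 1707 kb away and was at -0.56 over control vector (adjusted p = 0.0753, and 0.0165 with the preparation block; also called with no filter and without Htt-72Q 3) and -0.82 over Htt-25Q (adjusted p = 0.0137). Beside Mef2a, Lysmd4 (2.70 kb away) was at 0.10 and Lrrc28 (141 kb) at -0.31 over control vector, neither called. Beside Mef2d, Iqgap3 (21.3 kb) was at 0.23 and AI849053 (27.0 kb) at -0.40, neither called. Borcs8, which overlaps Mef2b, averaged 49.4 CPM with Htt-72Q, 33.1 CPM with Htt-25Q and 40.0 CPM with control vector and was not called (0.31, adjusted p = 0.340 over control vector; 0.57, adjusted p = 0.0741 over Htt-25Q, though called there in 6 alternatives, among them without Htt-72Q 4, Htt-25Q 3 or control vector 1). Near Mef2b, Tmem161a (4.87 kb) was at 0.03 over control vector, and Rfxank (13.6 kb) was at 0.65 (adjusted p = 0.0611, and 0.0386 with the preparation block), called in 7 alternatives in all. Over Htt-25Q Rfxank was called (0.73, adjusted p = 0.0374), a call that ended without Htt-72Q 1 or 3, Htt-25Q 1, 2 or 4 or control vector 2 (adjusted p 0.0544 to 0.121), with the preparation block (0.179), with limma voom, with no filter and in a fit of both groups alone.

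The genes whose level followed Mef2c most closely over the 12 libraries were ranked by Pearson r of log2(CPM + 0.5) among 12342 genes of at least 1 CPM. The 10 closest were Met (r = 0.995), Zbtb18 (0.995), Dbpht2 (0.995), Sphkap (0.994), Myo5b (0.993), Cpne8 (0.993), Nwd2 (0.993), Rfx3 (0.992), Ngef (0.991) and Camk2b (0.991). Met encodes the receptor of hepatocyte growth factor, Zbtb18 a transcriptional repressor of cortical neurons and Camk2b a subunit of a synaptic kinase. Met averaged 52.3 CPM with Htt-72Q, 296 CPM with Htt-25Q and 296 CPM with control vector, and Zbtb18 was at 184 to 193, 690 to 787 and 696 to 776 CPM in the same groups. Because the Htt-72Q libraries stand apart, these r values mostly restate the difference between groups; within groups, with the group means removed, r was 0.81 for Met, 0.82 for Zbtb18, 0.88 for Dbpht2, 0.92 for Sphkap and 0.59 for Camk2b. In all, 304 genes had r above 0.95, 67 had r below -0.95, and the median over all genes was -0.04. Mef2d had r = 0.90 with Mef2c (0.57 within groups) and Mef2a had 0.59 (-0.16 within groups). Ranking by Spearman's rho shared 0 of the 10 genes.

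The 10 genes that ran most against Mef2c over the 12 libraries were Snx24 (r = -0.985), Snx8 (-0.984), Irs4 (-0.983), Cd55 (-0.983), Nnt (-0.982), Pidd1 (-0.980), Lhx4 (-0.980), Ebf3 (-0.978), Gtse1 (-0.976) and Armc5 (-0.975). These values, too, mostly restate the difference between groups. Within groups r was -0.77 for Snx24, -0.65 for Snx8, -0.50 for Nnt, -0.47 for Pidd1, -0.31 for Armc5 and -0.29 for Cd55. It was weaker for Gtse1 (-0.19), Irs4 (-0.17), Ebf3 (-0.15) and Lhx4 (0.0017). Snx8, which encodes a sorting nexin, averaged 124 CPM with Htt-72Q, 56.1 CPM with Htt-25Q and 58.2 CPM with control vector. Cd55, the gene of a complement regulator, averaged 8.84, 3.42 and 3.27 CPM in the same groups. The homeobox gene Lhx4 and the transcription factor gene Ebf3 were at 6.29 and 4.92 CPM in Htt-72Q, at 0.220 and 0.270 CPM in Htt-25Q and at 0.147 and 0.256 CPM in control vector.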

How the data were processed

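RNA was measured in 12 libraries of mouse cortical neurons. Per the submitters' processing notes, STAR 2.0.4b, Subread, featureCounts 1.45 and GRCm38 were used; the roles and settings of these tools, strand use, the treatment of shared reads and the annotation are not given. Per the labels, RNA was depleted of ribosomal RNA (Ribo-Zero) and each sample gave 1 library, sequenced in more than 1 lane and merged. Control vector 2 carries another wording of the infection label and was placed by its title. The deposited files hold the authors' read counts per gene, with the authors' CPM (the share of the library's reads) and RPKM (the same divided by exon length), both of which follow from the counts. No pair of libraries was a duplicate (smallest chi-square per degree of freedom 9.00).

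The members, lists and rules were chosen with earlier results of these data known. Counts were tested with the edgeR 4.0.16 quasi-likelihood test in R 4.3.3, in 1 fit of all 12 libraries on the 3 groups, with TMM scaling and the filterByExpr minimum of 10 counts. The fit left 9 residual degrees of freedom and tested 14707 genes. The test is two-sided, and a gene is called where its p, adjusted over all of them by Benjamini and Hochberg, is under 0.05. Log2 fold changes carry the SE of this fit; 95% intervals use its 9 degrees of freedom. Promoters are RefSeq windows on GRCm38.p6, which matched all 4 members; loci and neighbours come from the files and GENCODE M21. The test was checked on simulated counts, drawn independently for each library and with a small part of the genes changed. That check does not cover libraries that vary together by preparation.

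Named genes are the members, at most 8 called genes of smallest p per list and Htt-72Q comparison, the Srf branch, the nearest tested or overlapping genes, and the 10 most and 10 least like Mef2c; others are said to be outside this rule or belong to a small count. Residuals of libraries of 1 preparation correlated above 0.1 in 10 of 10 pairs (median r 0.28), against 6 of 38 other pairs, so the preparation number of the labels was taken to pair libraries. The main fit holds no term for it, so p-values given without a block leave this pairing out. As a block it called 30.5% of all genes over control vector (23.2% in the main fit) and 21.2% over Htt-25Q (22.5%). A block by preparation leaves 5 degrees of freedom, and Htt-25Q 4 is alone in its block. Alternatives were DESeq2 1.42.0, limma voom (limma 3.58.1), other scalings and filters, fits of only the compared groups, blocks by preparation or title number, each library left out, and a term for the Gapdh classes, the last added after seeing the data. Intervals for counts of 0 cover counting error only. A gene of the neuronal list, which enters its counts, is not reported here.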

Additional observations from a re-analysis of the deposited data

Results flagged for a closer look

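No member was flagged. In 159 groups of 4 libraries (the named genes in each study group), 5 held a library far from the other 3; chance flags about 1 in 20 groups. Camk4 was at 519 CPM in control vector 1, above the other 3 control libraries. Mamstr was at 1.01 CPM in control vector 3, above the others of its group. Kcna1 was at 50.7 CPM in Htt-72Q 4, above the other Htt-72Q libraries and above Htt-25Q 1 (49.7 CPM), but below its mean in the other groups. Its Htt-72Q and Htt-25Q ranges therefore overlapped. Borcs8 was at 35.1 CPM in Htt-72Q 4, below the other 3, and Cd55 was at 2.93 CPM in control vector 2, below the other 3.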

How the results depend on the processing

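The results were recomputed under other tests, scalings, filters, blocks and subsets of libraries, and 391 values stayed the same. For members in Htt-25Q over control vector, this means the same direction and side of the threshold. For counts it means a value within 1.5 times. For members in the Htt-72Q comparisons and for the share of Mef2c, it means a shift smaller than the SD within groups. With the preparation as a block, 11 MEF2-regulated neuronal genes were called over control vector, against 6 without it. Leaving out each library, the count over Htt-25Q ran from 4 to 8. For Htt-25Q over control vector, which called no gene, Mef2c turned to 0.010 without Htt-25Q 2 and to 0.0013 without control vector 4 (range -0.14 to 0.010 over the libraries left out), and Mef2d to 0.063 without control vector 1 (range -0.17 to 0.063). Spearman's rho in place of Pearson's r shared 0 of the 10 genes most like Mef2c. The cause was not tested. With the preparation block the log2 fold change of Mef2c was -2.19 over control vector and -2.06 over Htt-25Q, and that of Mef2d -0.75 and -0.52. Title numbers correlated above 0.1 in 10 of 12 pairs (lowest -0.49) and were not taken to pair libraries; as a block they gave -2.20 and -2.14 for Mef2c. For regulators, neuronal genes and neighbours named in the text, the preparation block changed a call only where a block value across the threshold is given there. Scaling by library totals moved the median of all genes to 0.11 over control vector, with Mef2c at -2.11. Leaving out each library, Mef2c ran from -2.28 to -2.14 over control vector and from -2.21 to -2.08 over Htt-25Q. With 4 libraries a group, smaller differences such as that of Mef2a lie near the spread between libraries.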
